A study of Drosophila melanogaster with 2 samples.

Results

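Exonic summits away from start sites are the peaks of a sisA-eGFP binding map whose highest point fell inside an exon of a protein-coding gene, well away from any promoter. They were taken from the deposited conservative peak list, which rests on both replicates. A summit was counted when it lay more than 500 bp from every transcription start site (TSS) of a protein-coding transcript and in a coding, 5' UTR or 3' UTR base. Of 5133 conservative summits on X, chromosome 4 and the large autosomal arms (2L, 2R, 3L, 3R), 560 lay in such a base, 350 of these were within 500 bp of a TSS, and 210 remained (4.09% of the list). They comprised 145 in coding sequence, 23 in a 5' UTR and 42 in a 3' UTR, in 197 host genes.

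The map was made by ChIP-seq, in which chromatin bound by a protein is pulled down and sequenced. Whole Drosophila melanogaster embryos of 0 to 18 h were used, which carried a sisA-eGFP transgene. All samples were of 1 genotype, stage and treatment, with 2 biological replicates and no second group. Chromatin was sonicated to 200 to 800 bp, sex was not recorded for the embryos, and the antibody field names sisA. A whole embryo mixes all tissues and 18 h of development, so a peak has no cell type, and the tagged protein came from a transgene. Control libraries were not used here, so no background level stands beside the peaks. With 1 group there was no comparison of conditions and no test over samples, and the values below are descriptions. The number of reads behind a peak, and so the depth, is unknown.

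The protein SisA is a basic leucine zipper (bZIP) factor encoded on X, known as one of the X-linked signal elements that activate Sxl in early female embryos. Transcription factors are best known for sites in promoters, introns and intergenic enhancers, while coding exons are constrained by the protein they encode and, in flies, are richer in G and C than introns. A UTR belongs to the transcript without coding for protein.

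Sequences from 3 sets of exonic summits are shown, 2 of them chosen for a word and printed around it, the other printed around the summit, so the sets differ by choice. Each is 30 bases of the forward strand of dm6, and its position follows in the order printed. The coding examples with a CTCF-like core, AGNNGGCGC or its reverse complement GCGCCNNCT in capitals, were those of klar (a nuclear migration protein; chr3L:506256-506285), Pde1c (a cyclic nucleotide phosphodiesterase; chr2L:11816558-11816587), HisRS (histidyl-tRNA synthetase; chrX:18517602-18517631) and SKIP (chr3R:22277715-22277744), the strongest with the core after otp. In HisRS the capitals cover overlapping matches on both strands.
klar: cccagacccaAGGTGGCGCtgctgtgcaga
Pde1c: ttaggccgcaGCGCCATCTgccggctccgc
HisRS: gcaacgttccAGACGGCGCCCTCTggcggc
SKIP: gcaactatcgAGCGGGCGCgccaggcggcc
The coding summits closest to the median signal of their class are shown as examples of that height, with no capitals. They lay in ctrip (a ubiquitin ligase; chr3R:4794812-4794841), Prm (paramyosin of muscle; chr3L:8733790-8733819), side (a motor axon guidance protein; chr3R:27388639-27388668) and NKCC (an ion cotransporter; chr3R:5492386-5492415). The windows of 30 bases around the summits held 50 to 73.3% G and C. Within its 30 bases side holds TTGCGCAA, a word known for bZIP factors, and such words were at only 3 of 145 coding summits. Outside the bases printed, the wider windows held ACAGTG at ctrip and GCCGCC at Prm.
ctrip: gtgggtcctccgccaggagccgaccccgat
Prm: gcctccagctcgcgctggaagcggcgcaca
side: gtgtcgttgcgcaattcgcaggccttcggt
NKCC: agagagcgtatgaggacatcgagatgagca
The strongest 3' UTR summits with the word ACAGTG or its reverse complement CACTGT (capitals) lay in APC7 (a subunit of the anaphase-promoting complex; chrX:6599553-6599582), CG7872 (chrX:15579703-15579732), NetB (a netrin, a guidance cue for axons; chrX:14689201-14689230), by (tensin, of integrin adhesions; chr3R:9528698-9528727) and Tctp (a growth regulator; chr3R:11211762-11211791).
APC7: ctacgctcttggCACTGTtactgtaatcaa
CG7872: gtacgcgtcggcACAGTGtccactggctgc
NetB: ttatcgagcggtACAGTGggtactcagttc
by: atccacttgtccCACTGTgcatttagtcaa
Tctp: tgagagatgcgcACAGTGgacactcgttag

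Coding and UTR summits differed in height. Peak signal is the value given by the authors' peak caller over both replicates. Its median was 67.0 at coding summits (interquartile range 61.7 to 73.2), 133.8 at 5' UTR summits (90.0 to 240) and 101 at 3' UTR summits (81.4 to 176). Intron summits had a median of 123, intergenic summits 113 and promoter summits 157. By median, 5' UTR summits lay among the other classes, 3' UTR summits somewhat below them and coding summits lowest. Signals above the median of the list, which 50% of all summits have, were found at 3 of 145 coding summits (2.07%), 12 of 23 in 5' UTRs and 15 of 42 in 3' UTRs.

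The coding summits were packed into a narrow range near the bottom of the list. Signals of 50 to 80 were held by 118 of 145 coding summits (81.4%), against 17.8% of all summits. When the list was ordered by signal and split into 10 equal bins, the weakest bin held 81 coding summits and the one before it 46, and the strongest 5 bins together held the 3 of otp, klar and Pde1c. Coding sequence made up 15.8% of the weakest bin and 0.195% of the strongest. The 3' UTR share stayed between 0.390% and 1.36% in every bin, and the 5' UTR share between 0.195% and 0.585%.

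**Figure D1:**
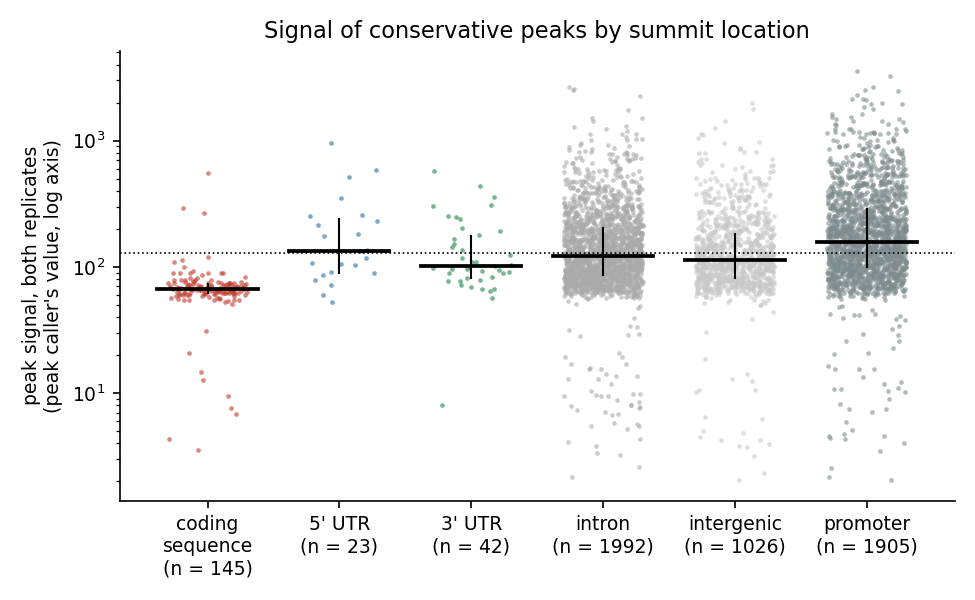
Peak signal (peak caller's value over both replicates, log axis) of each conservative summit by location, with points spread sideways at random. Thick lines are medians, thin lines interquartile ranges and the dotted line the median of the list (128); coding summits crowd around 67.0, while 5' UTR summits centre on 133.8.

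**Figure D2:**
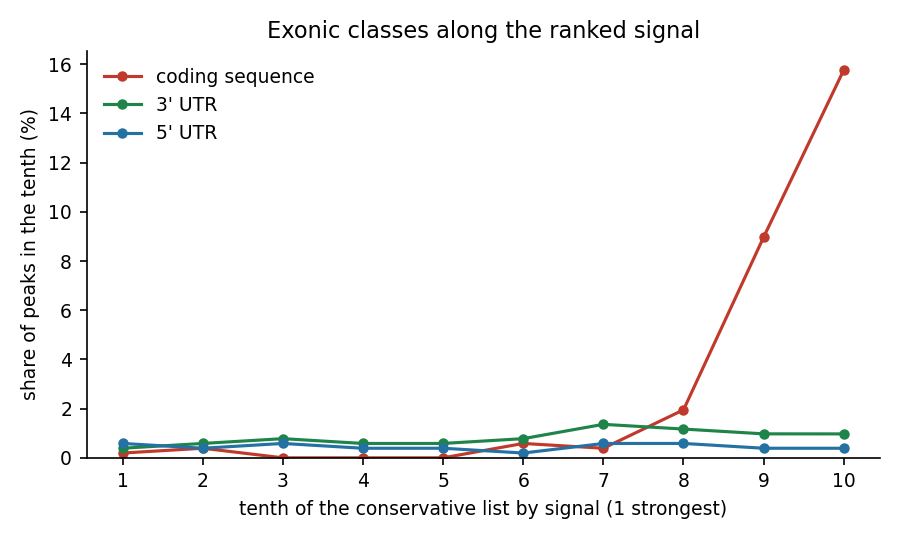
Share of peaks (%) with a summit in coding sequence, 5' UTR or 3' UTR in each of 10 equal bins of the conservative list by signal, from the strongest (1) to the weakest (10). The coding share rises to 15.8% in the weakest bin, and both UTR shares stay at or under 1.36%.

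The strongest exonic summits were mostly in UTRs. Of the 15 strongest, 6 were in a 5' UTR, 6 in a 3' UTR and 3 in coding sequence, and 5 lay on X. All 6 in a 5' UTR also lay in an intron of another transcript of the same host. The highest was in the 5' UTR of baz, which encodes the Par-3 polarity scaffold Bazooka, at chrX:17178560-17178834 in exon 2, 18721 bp from the nearest protein-coding TSS. Its signal was 960, with 606 in replicate 1 and 371 in replicate 2, at place 86 in the list. The same exon, of 3624 bp, held 2 more summits, with signals of 174 (105 and 71.5 in replicates 1 and 2) and 105 (48.9 and 56.7), and baz was the only host with 3.

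Other strong 5' UTR summits belonged to regulators and metabolic genes. Fbl6, an F-box protein gene, had a signal of 590 (280 in replicate 1, 305 in replicate 2), 513 bp from a TSS and so just past the limit. The summit of eas, an ethanolamine kinase gene, had a signal of 515 (266 and 255). Mef2, the muscle transcription factor, followed with 354 (198 and 157). These replicate values lay close to each other compared with the spread between genes. The GATA cofactor gene ush had a signal of 259 (132 and 122), and cic, a repressor downstream of receptor tyrosine kinases, 251 (136 and 113).

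Among 3' UTR summits, APC7 was highest at 580 (318 in replicate 1, 262 in replicate 2), at chrX:6599354-6599612, 561 bp from a TSS of the neighbouring gene pigs. CG7872 had a signal of 438 (186 and 253), higher in replicate 2. NetB had a signal of 360 (197 and 157), in its last exon and 9723 bp from the nearest protein-coding TSS. NetB thus lay far from protein-coding starts, while APC7 lay close to one. CG10357 followed with 309 (163 and 148), by with 306 (159 and 148) and CG5895 with 251 (124 and 140).

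In coding sequence 3 summits lay far above the others. The homeodomain gene otp had a signal of 557 (282 in replicate 1, 286 in replicate 2), at chr2R:20884491-20884730 in its last exon, 4666 bp from a TSS. In klar, which encodes a protein that positions nuclei, exon 3 held a signal of 294 (142 and 149). In Pde1c the last exon held 269 (141 and 128). After these the coding signals dropped to 119 in CG10962 (61.5 and 53.9) and 112 in CG31259 (74.0 and 34.8).

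Of 5133 conservative peaks, 5078 have a paired signal in each replicate. The paired signal of coding summits had a lowest, median and highest value of 28.4, 33.0 and 282 in replicate 1 and 29.4, 35.1 and 286 in replicate 2. In the 5' UTRs these values were 33.7, 86.5 and 606 in replicate 1 and 29.5, 61.4 and 371 in replicate 2, and in the 3' UTRs 31.7, 56.5 and 318, and 29.3, 50.2 and 262. The ranges of the classes overlapped in both replicates, but the medians of the UTR classes were higher than that of coding sequence in each. Spearman's rho of the paired signals, across peaks of the same 2 libraries, was 0.13 over 141 coding summits, 0.82 over 65 UTR summits and 0.86 over 5078 summits of the list. These classes differ in their range of signal. Over summits with signals of 50 to 80, rho was -0.12 for coding, -0.31 for promoter, -0.33 for intron and -0.30 for intergenic summits. That range is set on the signal over both replicates, and such a limit by itself pulls rho down. These values therefore do not compare replicate agreement between classes.

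Replicate 2 gave the higher paired signal at 81 of 141 coding summits (57.4%) and 20 of 65 UTR summits (30.8%), against 24.9% of all paired summits. Within the signal range of 50 to 80 the same held for 62.4% of coding summits and 48.6% of all. The scale of each replicate's signal is not stated in the sources used here, so shares can be set beside each other but a value of 1 replicate is not higher in an absolute sense. For 4 coding summits, the close pairs in LpR1 and CG4462, the paired interval of replicate 2 was not found in its own ranked list. They therefore have no signal for replicate 2.

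**Figure D3:**
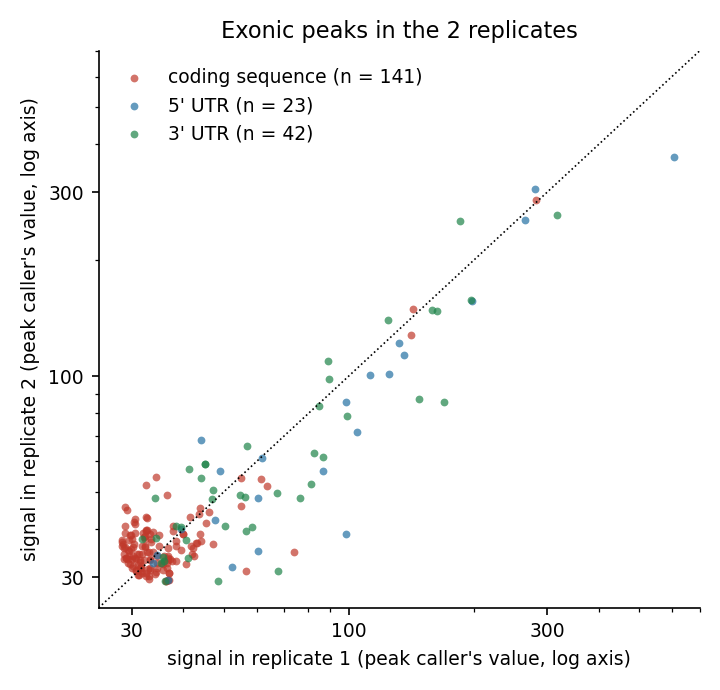
Signal of each exonic peak in replicate 1 and in replicate 2 (peak caller's value, log axes), with a dotted line at equal values. UTR peaks spread along the line up to 606, while most of the 141 coding peaks sit in a cloud near 33.0 and 35.1.

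Few coding summits passed the threshold in a replicate alone. A peak passed at a score of 830, equal to an irreproducible discovery rate (IDR) of 0.01, and summits were matched within 100 bp. In the thresholded list of replicate 1, 15 of 145 coding summits had a match (10.3%, 95% exact binomial interval 5.91 to 16.5, counting error only), against 49 of 65 UTR summits (75.4%) and 75.8% of all conservative summits. In replicate 2 the match was found for 13 coding summits (8.97%, interval 4.86 to 14.8) and 38 UTR summits (58.5%), against 62% of all. Weak peaks of every class had few matches. Among summits with signals of 50 to 80, the share matched in replicate 1 was 5.08% of coding, 25.9% of promoter, 15.8% of intron and 17.5% of intergenic summits. In replicate 2 it was 3.39%, 8.33%, 5.73% and 8.29%. Coding shares in this range were lower than those of the other classes, by less than in the whole list. In replicate 2 the coding share rested on 4 of 118 summits. Its interval, 0.931 to 8.45, covers the shares of the other classes. Within the range coding summits also lay lower. Their median signal there was 66.0, against 70.6 for promoter, 70.4 for intron and 70.4 for intergenic summits, so height was not equal. Of all 145, there were 5 coding summits with a match in both lists and 122 with a match in neither. In the longer ranked lists before thresholding, 89.7% of coding summits had a match in each replicate.

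Lists called from a replicate alone held a smaller share of coding summits. Coding sequence away from TSSs took 33 of 4720 peaks in the list of replicate 1 (0.699%) and 48 of 3408 in that of replicate 2 (1.41%), against 2.82% of the conservative list and 3.40% of the longer list from both replicates. UTR summits took 1.14%, 1.20%, 1.27% and 1.33% of the same 4 lists. The coding share therefore moved with the list and the UTR share little.

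The conservative list kept a small part of the coding peaks that were ranked. Of 116006 ranked peaks on the arms, 28004 (24.1%) had a summit in coding sequence away from TSSs, and 145 of these were kept (0.518%), against 4.42% of all ranked peaks. Among ranked peaks with a signal of 50 to 80, coding peaks were kept in 10.3% of 1147 cases and all peaks in 16.9%. Of 44 peaks in 5' UTRs there, 9.09% were kept. Height was not equal in this range, with a median signal of 55.3 for coding and 57.3 for all ranked peaks. There were 41 ranked exonic peaks above the median signal of the kept coding summits that were not kept, the strongest with a signal of 86.4 and a score of 717.

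Coding summits stood out by base composition. In windows of 201 bp the median G and C content was 61.2% at coding summits (interquartile range 57.2 to 64.7), 43.8% at 5' UTR summits and 38.1% at 3' UTR summits, against 35.8% over the list. The content was above that of the flanks, 500 bp to each side, at 138 of 145 coding summits and 28 of 65 UTR summits, against 23.1% of all summits. The median of the coding summits' flanks was 43.3%. Averaged over bins of 51 bp, coding summits rose from 45.1% at 1000 bp upstream to 62.5% at the summit, while UTR summits dipped to 38.3% and intron summits to 33.2%.

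Coding sequence itself was poorer in G and C than the summits in it. Windows centred on all 18.7 Mb of coding bases more than 500 bp from a TSS had a median of 52.2% and a 90th percentile of 60.2%, and 8.58% of these bases reached the median of the coding summits. Among all summits with signals of 50 to 80 the median was 41.8%, and among the coding summits in that range it was again 61.2%. The 5' UTR summits in that range, only 4, had a median of 62.7%, and the 9 in 3' UTRs 38.3%. Over the whole list high G and C content therefore went with the coding class, but in that range the few 5' UTR summits had it too. Most coding summits lay in that signal range, so these values cannot separate content from low signal within the class. The part of base composition in either was not tested.

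**Figure D4:**
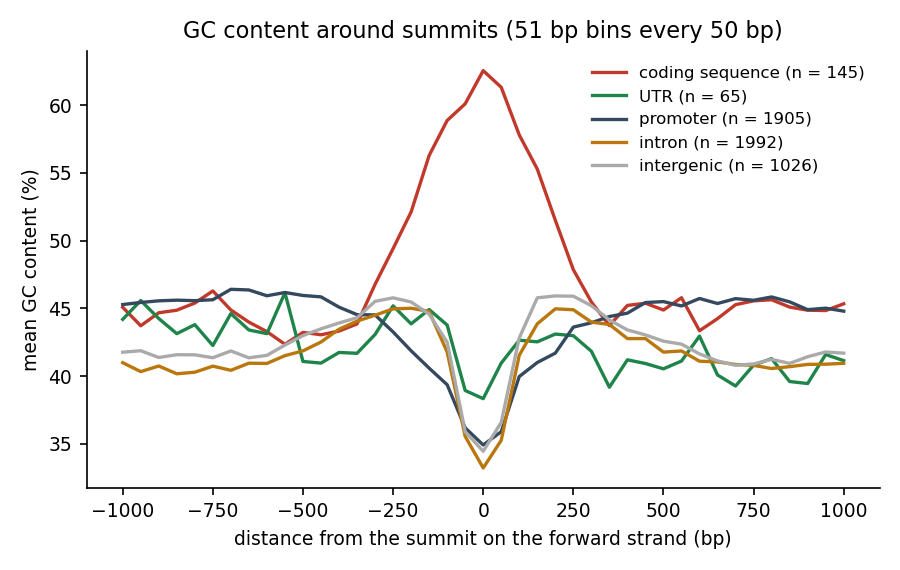
Mean G and C content (%) in bins of 51 bp by distance from the summit (bp, forward strand), for coding, UTR, promoter, intron and intergenic summits. Coding summits peak at 62.5% at the summit, while the other 4 classes dip there.

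Short words followed this composition. GCCGCC or its reverse complement was present within 100 bp of 72 of 145 coding summits (49.7%), against 14.1% of their flanks and 6.78% of all summits, and at 8 of 65 UTR summits (12.3%). The word was picked after all words of 6 bases had been counted, among which it had the largest excess over the flanks at exonic summits. CAGCAGCAG, which can encode glutamine runs, was found at 15.2% of coding summits, 3.45% of their flanks and 1.25% of all summits, and CAGCTG, an E-box, at 27.6%, 8.97% and 8.83%. TTAAAA, in contrast, was at 2.07% of coding summits and 46.2% of UTR summits, against 47.0% of all summits. The nearest exon edge was a median of 229 bp from coding summits, so many flanks, centred 500 bp away, lay outside the exon. Word shares over all coding bases were not counted. An excess over the flanks or the list is therefore not shown to be one over coding sequence.

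The core AGNNGGCGC occurred at 18 of 145 coding summits (12.4%, flanks 3.45%) and 7 of 65 UTR summits (10.8%, flanks 5.38%), against 3.49% of all summits. Its share over all coding bases was not counted either. All 3 coding summits above the list median, in otp, klar and Pde1c, held it. Coding summits with the core had a median signal of 74.9 (54.2 to 557), and the 127 without it 66.1 (3.52 to 119). The ranges overlap, and of the 18 coding summits with the core 11 also held GCCGCC, with which it shares letters.

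ACAGTG occurred at 19 of 65 UTR summits (29.2%, flanks 9.23%) and 22 of 145 coding summits (15.2%, flanks 5.52%), against 21.1% of all summits and 23.8% of intron summits. This word was picked because it had the largest excess over the flanks at UTR summits among all words of 6 bases, so that excess is a description. The UTR summits with the word had a median signal of 133.8 (56.5 to 580) and those without it 102 (8.06 to 960), with ranges that overlap. Hosts of the UTR summits with the word included, besides those printed above, Top2 (topoisomerase), Myd88 (an adaptor of Toll signalling), exu (bicoid RNA localisation) and rst (an adhesion protein), chosen after their values were seen.

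Words known for bZIP factors were scarce. Any of TGACTCA, TGACGTCA, TGACGCAA, TTGCGCAA and TTACGTAA was found at 3 of 145 coding summits (2.07%), in Ace, side and Spn, and at 0 of 65 UTR summits, which allows a share of up to 4.62%, against 2.73% of all summits. The flanks held them at 1.72% and 3.08%. Of the core promoter words, TATCGATA (the DRE) was at 0 of 210 exonic summits, which allows up to 1.43%, and GGTCACAC was at 1. Their shares over the list, 2.36% and 1.56%, come mainly from promoter summits (5.88% and 3.46%), which the distance limit leaves out. Intron summits held them at 0.201% and 0.552%. A missing word says only that these letters were not in the window.

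X stood apart from the large autosomal arms, low in coding summits and high in UTR summits. X held 7 of 145 coding summits (4.83%) and 27 of 65 UTR summits (41.5%), against 20.5% of all summits. X has 17.8% of the coding bases and 23.1% of the UTR bases more than 500 bp from a TSS. Per Mb of such coding sequence there were 2.11 summits on X and 9.14 on the large autosomal arms together. Per Mb of UTR there were 16.4 and 7.1. Arm 3R had the most per Mb of coding sequence at 11.9, and chromosome 4 had none of either kind.

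The few coding summits on X were not the lowest. Their signals ran from 63.0 over a median of 89.4 to 119, against a median of 66.4 for the 138 others. They lay in CG10962, CG1986, HisRS, Snx27, CG2533, unc-4 and CG9095, named after their values were seen. The X coding bases had a higher median G and C content than all coding bases, at 54.7%. In the ranked list X held 18.8% of coding peaks and 19.3% of all peaks. Among ranked peaks with signals of 50 to 80 it held 5.23% of coding peaks and 13.5% of all. X was thus low among ranked coding peaks of that height too, while its share of all peaks was also lower there. The UTR summits on X had a median signal of 118 and those off X 103. How many copies of X the embryos carried was not measured.

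**Figure D5:**
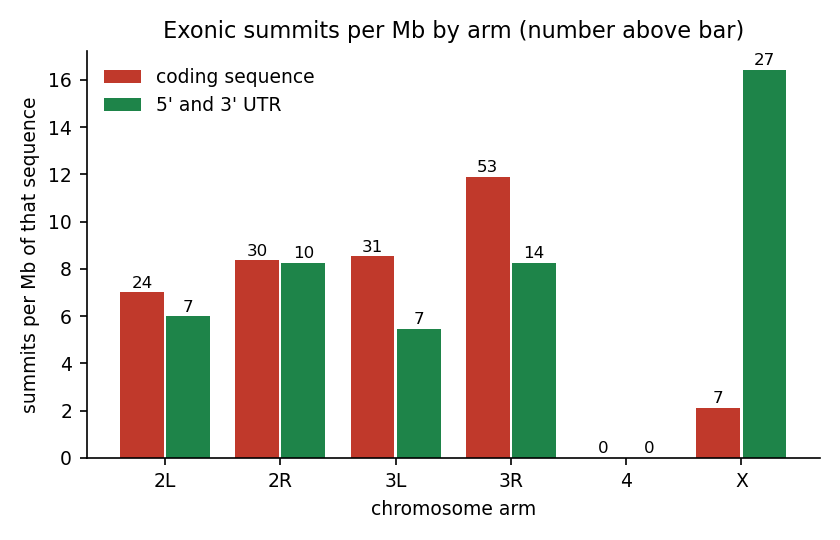
Exonic summits per Mb of coding or UTR sequence more than 500 bp from a TSS, by chromosome arm, with the number of summits above each bar. X has 2.11 coding and 16.4 UTR summits per Mb. On the other large arms the coding value is the higher, by little on 2R (8.36 and 8.26).

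The exonic label fitted most but not all members. In 183 of 210 the summit was exonic in every transcript of the host that spans it, while 27 were in an intron of another transcript, 15 of them among the 23 in 5' UTRs. Another gene overlapped 17, and 3 had a TSS of a noncoding gene within 500 bp. The nearest TSS was the host's own for 137. The distance to the nearest protein-coding TSS of any gene ran from 512 bp over a median of 1951 bp to 40339 bp, with 53 members more than 5000 bp away.

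Within exons, coding summits kept from the edges. Their exons had a median length of 845 bp, against 999 bp for all coding bases considered. The nearest exon edge was a median of 229 bp away, against 212 bp, and within 100 bp for 19.3% of summits, against 31.0% of bases. Of the coding summits 83 lay in internal exons, 47 in last, 9 in first and 6 in single exons. The 5' UTR summits lay in first (7) or internal (16) exons and 34 of 42 3' UTR summits in the last.

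At the limit of 500 bp, members just past it were FucTC at 512 bp with a signal of 89.8, Fbl6 at 513 bp with 590 and swif, which overlaps cola, at 520 bp with 60.3. Exonic summits just within it were CG4456 with Hsp22 at 490 bp and 192, mtd at 488 bp and 89.5, and Galphao at 483 bp and 57.6. Values on the sides of the limit overlapped.

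Of the 197 hosts, 12 had 2 or more exonic summits. They were baz with 3, and CG14535, CG15822, CG42342, CG4462, CG6793, Crag (a Rab regulator), LpR1 (a lipophorin receptor), Slob (a partner of the Slowpoke channel), dac (an eye and leg regulator), pum (the translational repressor Pumilio) and ru (a rhomboid protease of EGF receptor signalling) with 2 each. Many of these pairs were close together. Among all members, 10 lay 199 to 221 bp from a stronger conservative summit, against 2.65% of all summits being within 250 bp of one, and all 10 shared a replicate peak with it.

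These 10 had signals of 3.52 to 31.0, below the lowest of the other 200 members at 50.7. They were in CG43245, dac, CG6793, LpR1, Slob, Crag, CG31371, ru, CG15822 and CG4462, with 9 in coding sequence and Crag in its 3' UTR. In CG4462 the pair had signals of 56.0 and 3.52. In dac it had 62.3 and 20.8, from 1 peak of 39.9 in replicate 1 and 38.9 in replicate 2. These pairs are thus separate summits of shared replicate peaks. The pairs in CG14535 (78.5 and 76.3), CG42342 (99.9 and 71.8) and pum (65.7 and 54.6) lay more than 250 bp apart.

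Host genes were also read against 9 hand-written lists, beside 1.41% of 13945 protein-coding genes that hosted an exonic summit. The lists are short and do not hold every gene of their kind. None of 23 genes of sex determination and dosage compensation, and none of 54 chromatin and Polycomb or trithorax genes, was a host, and in lists of this size the background share amounts to fewer than 1 gene. Chromatin regulators outside the list were hosts, namely upSET with a coding signal of 74.9 (36.7 in replicate 1, 35.8 in replicate 2) and Bicra with a 5' UTR signal of 71.2 (34.6 and 34.2), named after their values were seen. Of 19 bZIP genes 1 was, tj, the large Maf factor Traffic jam of the gonad, with a coding signal of 71.3 (36.6 in replicate 1, 31.7 in replicate 2).

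All hosts in the homeodomain list and in the signalling list had coding summits, and the other transcription factor list had 2 coding and 3 UTR hosts. Of 63 homeodomain and Hox genes 3 were hosts, namely otp, ems (a head gap gene) at 68.8 and hbn at 53.1. The other transcription factor list was written for zinc finger, bHLH, Sox and nuclear receptor genes but also holds other families, Mef2 among them. Of its 81 genes 5 were hosts, led by Mef2, cic and the ecdysone response gene Hr3 at 107 (60.5 and 48.3). Of 69 signalling genes 2 were, sax (a BMP receptor) at 82.2 and grk (an EGF receptor ligand) at 74.3. Signalling genes outside the list also had UTR summits. Myd88, named after its value was seen, had a 3' UTR signal of 136 (81.2 in replicate 1, 52.4 in replicate 2).

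Cell surface and structural genes gave 6 of 67 for axon guidance, adhesion and polarity, led by baz, NetB and Dscam3 at 70.2. Of 47 cytoskeletal genes 2 were hosts, chic (profilin) with a 3' UTR signal of 124 (76.5 and 48.1) and cher (filamin) at 63.1. Of 48 RNA-binding genes 3 were, bel at 68.0, tral at 67.9 and pum. No list had more than 6 hosts, and larger genes offer more exon bases, which these shares do not adjust for.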

How the data were processed

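The authors' peak lists, in narrowPeak format on dm6, were used as deposited: a conservative list and a longer list from both replicates, a thresholded list of each replicate, and ranked lists before thresholding. The signal of a peak, deposited by the authors, is their peak caller's value with no stated normalization. The score is the authors' whole number derived from the IDR, and the summit offset from the peak's start was deposited by the authors as well. For the peak caller and the aligner, the sources used here give no name. The control library was not used here. Table columns of samples outside this series numbered 0.

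Summits on 6 arms (69 of 5202 peaks lie elsewhere) were assigned with Ensembl release 115 (annotation BDGP 6.54) in the order 5' UTR, coding sequence and 3' UTR, where several apply, with stop codons counted as coding. Replicate values of a peak were taken from the ranked list, and the replicate was identified by finding the same interval in each replicate's own ranked list. G and C content and 18 words on both strands were read 100 bp to each side of the summit, and flanks were windows centred 500 bp to each side. Coordinates are 1-based, and the sequences are from the dm6 reference given with the annotation. Floors of a count of 0 are 3 counts of the total and intervals are exact binomial; both cover counting error only. The class and distance assignment was tested on simulated data.

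The members, gene lists, words and alternatives were chosen with earlier results of these data known. Genes named were the hosts of the 15 strongest summits, the 5 strongest of each class, the 3 nearest to the limit on each side, hosts of 2 or more summits, members of the sex determination and bZIP lists, and up to 3 hosts of every other list by signal. Tables were handled with pandas 2.3.3 and numpy 2.4.6 in Python 3.11.15, intervals came from scipy 1.17.1 and figures from matplotlib 3.10.9. Replicates were called biological per the labels, which do not say whether they came from separate collections.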

Additional observations from a re-analysis of the deposited data

How the results depend on the processing

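Of 66 values under other settings, 45 stayed within 1.5 times the count or within the 95% interval of the value, and 21 did not. With the list of 1 replicate alone, the number of exonic summits was 87 to 89, in coding sequence 33 to 48 and in UTRs 41 to 54. Their median signal was 48.8 to 55.0 (coding 42.2 to 44.6), on the scale of 1 replicate, where the reported coding summits had 33.0 and 35.1, and the share with a bZIP word 0 to 1.15%. The median G and C content was 45.3 to 54.7% over exonic and 60.2 to 61.4% over coding summits, and the share on X 9.09 to 10.4% of coding and 42.6 to 46.3% of UTR summits. Among peaks above the median signal of the list there were 30 exonic summits, 3 of them coding and 27 in UTRs. The longer list gave a median signal of 67.0 for exonic and 64.4 for coding summits. Windows of 200 bp to each side gave a G and C content of 55.6% (coding 58.9%). With TSSs at least 1000 bp away, 1.85% of coding summits lay on X. The alternatives for UTRs, X and close summits, those for G and C content by list, and those for coding summits other than counting coding sequence first (149) were chosen after seeing the data. No paired analysis was possible because there is 1 group and no test. The cause of these shifts was not tested.

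Coding summits were near the lower end of the list, where the IDR threshold decides what is kept, and depth is unknown. Without control libraries, background at G and C rich exons was not measured. The 2 libraries of whole embryos give no spread between groups.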
